A study of Homo sapiens with 6 samples.

Results

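Subcutaneous BxPC-3 xenografts were examined for 10 markers of myeloid cells and leukocytes: PTPRC, CD68, CD14, CD163, CSF1R, LYZ, TYROBP, FCER1G, C1QA and C1QB. They were chosen by name, and every non-control spot of the array that carried one of these gene names was taken, among 34423 gene names in all. The array held 14 probes for 9 of the 10 genes, and no probe was named LYZ, the gene of lysozyme, which was therefore not analysed here. Of the 9 genes, 7 had a probe that passed the detection threshold on all 6 arrays and could be tested. The remaining 2, CD163 and CSF1R, did not.

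BxPC-3 is an established human pancreatic adenocarcinoma cell line. It was grown in Matrigel under the skin of young adult female BALB/c (nu/nu) mice, and the question addressed by the arrays was how gene expression in the tumors differed after deferasirox (DFX), an oral iron chelator. The control group was 3 tumors from mice given the vehicle alone, and the DFX group was 3 tumors from mice given DFX at 200 mg/kg by oral gavage every second day, in both cases over 21 days. Each tumor was hybridized to its own one-color array of human 60-base probes. Both groups shared the nude mouse host, which lacks a thymus and mature T cells but keeps myeloid cells, B cells and natural killer cells. BxPC-3 cells are epithelial, so leukocytes in these tumors are of mouse origin, and a signal on a human leukocyte probe can come from mouse RNA that resembles the probe, from the human tumor cells, or from both. These sources cannot be told apart with this array.

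Tumor macrophages take up iron from dying red cells and debris and return it to their surroundings, so an iron chelator acts on a metal that these cells handle. PTPRC (CD45) is the tyrosine phosphatase on the surface of all nucleated blood cells. CSF1R is the receptor through which the growth factors CSF1 and IL34 keep macrophages alive. CD14 hands bacterial lipopolysaccharide to Toll-like receptors, CD163 takes up hemoglobin bound to haptoglobin, and CD68 is a glycoprotein of lysosomes. TYROBP (DAP12) and FCER1G are small membrane adaptors whose ITAM motifs pass on the signals of activating receptors, and C1QA and C1QB encode chains of C1q, the recognition unit of the classical complement pathway, which macrophages make.

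The probes are shown because a human oligonucleotide is the only thing that ties a signal in these tumors to a gene. Positions on hg19 come from the annotation of the array, and the sequences are given 5′ to 3′ as on the array. The annotation used here does not give the exon or the untranslated region in which a probe lies. For PTPRC the 5 probes lie along 1 gene, numbered by brightness, and 3 of them are given in full. Probe 1 lies at chr1:198671524-198671583 on the plus strand, probe 3 at chr1:198704313-198704372 and probe 5 at chr1:198676021-198676080.
PTPRC probe 1: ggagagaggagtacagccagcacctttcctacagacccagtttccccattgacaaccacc
PTPRC probe 3: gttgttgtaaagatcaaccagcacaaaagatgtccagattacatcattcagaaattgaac
PTPRC probe 5: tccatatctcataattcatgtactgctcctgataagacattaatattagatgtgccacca

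PTPRC probe 2, at chr1:198725541-198725600 on the plus strand, is of another kind. It held 15 TG dinucleotides, as many as or more than which occurred in 0.0534% of all probes on the array. Bases 30 to 59 of it are given, with each TG in capitals.
PTPRC probe 2, part: TGtaTGTGTGtaTGggTGTGTGttTGTGTG

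The C1QB probe, at chr1:22987795-22987854 on the plus strand, is given because this gene varied most among the tumors by the brightest probe of each gene.
C1QB: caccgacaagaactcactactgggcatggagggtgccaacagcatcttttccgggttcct

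A polyadenylation hexamer, AATAAA or ATTAAA, was found on the strand of the probe in 5 of the 14 probes, and in 11.2% of all probes on the array. A match of 6 letters describes the probe and is no proof of a site. The last 30 bases of the CD14 probe (chr5:140011318-140011377, minus strand), of the TYROBP probe (chr19:36395312-36395371, minus strand) and of FCER1G probe 2 (chr1:161190430-161190489, plus strand) are given with the hexamer in capitals.
CD14, part: tgccccacctttATTAAAatcttaaacaac
TYROBP, part: cccaatactctcctaaAATAAAcatgaagc
FCER1G probe 2, part: ttaaagataaagtgggAATAAActtttatt

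Values are log2 intensities after quantile normalization, and a probe cleared background on an array when the scanner software marked its signal as well above the local background. Detection was uneven among the genes. PTPRC, CD68, CD14, TYROBP, FCER1G and C1QB had a probe that cleared background on each of the 6 arrays, C1QA was well above background on 2 arrays, and CD163 and CSF1R on none. By probe, 7 of the 14 were well above background on all 6 arrays, 3 on some arrays and 4 on no array. Over all gene names on the array, 51.7% had a probe that cleared background on each of the 6 arrays and 34.1% on none. The share of probes well above background was 53.9% to 56.5% on 5 arrays and 50.3% on that of DFX replicate 2. Signal was thus found for part of the markers that define leukocytes. PTPRC, by its probes 1 and 2, and both ITAM adaptors were measured, whereas the receptors that mark tissue macrophages, CSF1R and CD163, were not. Such signal does not show that leukocytes were present. Mouse RNA and human tumor cells cannot be told apart as its source.

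**Figure D1:**
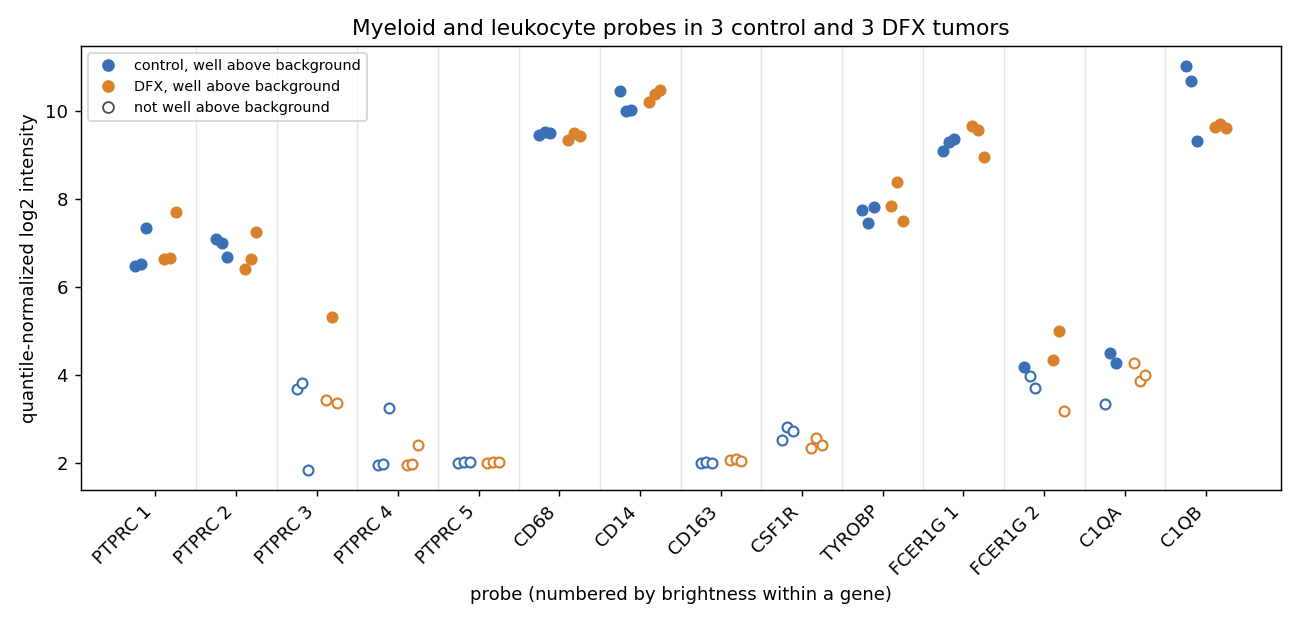
Quantile-normalized log2 intensity (vertical axis) of the 14 probes (horizontal axis) in 3 control tumors, blue, and 3 DFX tumors, orange; each point is 1 tumor, in the order of replicates, and open points were not well above background. Heights of different probes are not comparable. The control and DFX points of each tested probe overlap, and of the tested probes C1QB varies most among the control tumors. PTPRC probes 4 and 5, CD163 and CSF1R are open in all 6 tumors.

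None of the 7 tested genes differed between DFX and control tumors at an unadjusted limma p below the threshold of 0.05, against 7.98% of all 22718 genes tested by their brightest probe. With any probe of a gene allowed, the count was again 0 of 7, against 10.8% of all genes. None of the 9 tested probes separated the 3 DFX from the 3 control tumors without overlap, against 15.5% of all 31807 tested probes. The Kruskal-Wallis H test, which the paper used on its mouse data, cannot add to this count. With 3 tumors a group, its unadjusted p falls under 0.05 only where the groups do not overlap. Its 0 of 9 therefore repeats the count of probes without overlap. With only 7 genes and 9 probes, counts of 0 cannot be told apart from the shares over all genes and probes. After Benjamini-Hochberg adjustment over all probes, limma called 0 of the 9 probes and 0 of all 31807, of which 2675 (8.41%) had an unadjusted p under 0.05. The log2 difference was above 0 for 5 genes and below 0 for 2, with a median of 0.15 against -0.012 over all tested genes. In tissue RNA, fewer cells of a type and less RNA per cell cannot be told apart. The labels do not say whether the 3 tumors of a group came from separate mice. The paper treated several mice per group and chose the 3 tumors at random from those of the group, without naming the mouse of each. Control arrays sat in row 1 of the slide and DFX arrays in row 2, so row and treatment cannot be told apart.

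**Figure D2:**
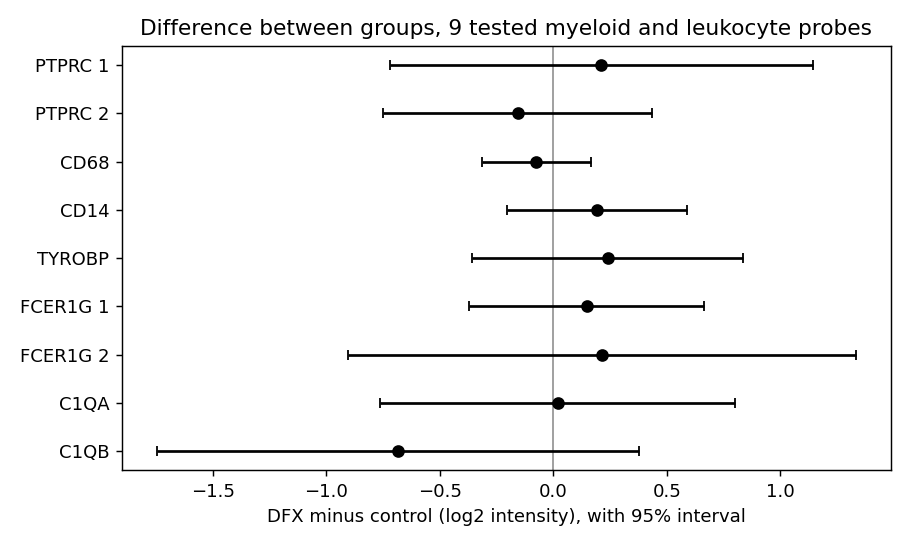
DFX minus control difference in log2 intensity (horizontal axis) of the 9 tested probes (vertical axis), with the 95% interval from limma over 3 tumors a group. All 9 intervals include 0; that of CD68 is the narrowest, -0.32 to 0.17, and that of C1QB runs from -1.75 to 0.38.

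PTPRC, the marker shared by all leukocytes, gave probes that did not move together. Probe 1 read 6.48, 6.53 and 7.35 in control replicates 1 to 3 and 6.63, 6.65 and 7.71 in DFX replicates 1 to 3. The highest tumor of each group was replicate 3, and the other 4 tumors lay within a narrow band, so that the groups overlapped. The log2 difference was 0.21 (SE 0.38, adjusted p = 0.890), with means of 6.78 ± 0.49 in control and 6.997 ± 0.61 in DFX tumors (SD, n = 3). Probe 2, with the TG repeats, read 7.09, 6.999 and 6.68 in control and 6.41, 6.65 and 7.24 in DFX tumors, a difference of -0.16 (SE 0.24, adjusted p = 0.871). Control replicate 3 was thus the highest control tumor by probe 1 and the lowest by probe 2. The sign of either probe depended on single tumors: without DFX replicate 3 probe 1 gave -0.14, and without DFX replicate 1 probe 2 gave 0.02.

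The other 3 PTPRC probes were not tested. Probe 3 was well above background in DFX replicate 2 alone, where it read 5.31, against 3.44 and 3.38 in the other DFX tumors and 3.68, 3.83 and 1.85 in control tumors. With 1 of 6 arrays above background, no direction is given. Probe 4 ranged from 1.95 to 3.25 and probe 5 from 1.996 to 2.04 over the 6 tumors, both at background throughout.

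CSF1R and CD163, the receptors of resident and scavenging macrophages, gave no measurable level. CSF1R (chr5:149432861-149432920, minus strand) read 2.53, 2.81 and 2.72 in control and 2.33, 2.57 and 2.41 in DFX tumors, none well above background, although the probe was printed on 10 spots of each array. With the detection threshold removed its adjusted p was 0.703. CD163 (chr12:7623882-7623941, minus strand) read 2.01 to 2.02 in control and 2.04 to 2.10 in DFX tumors. These CD163 values did not overlap between groups, the only such case among the 14 probes, but values at background have no order and no fold is given for either gene.

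CD68, the lysosomal glycoprotein used to stain macrophages, was the steadiest of the genes measured. The probe, at chr17:7484879-7484938 on the plus strand, read 9.46, 9.53 and 9.502 in control tumors and 9.34, 9.49 and 9.43 in DFX tumors. All 6 values lay within 0.18 of each other, and the groups overlapped at the top of the DFX range. The difference was -0.08 (SE 0.099, adjusted p = 0.845), which as a fold was 0.949 with a 95% interval of 0.803 to 1.12. Of 17803 genes whose brightest probe cleared background on each of the 6 arrays, 4.44% had a smaller range over the 6 tumors, where the median range was 0.49.

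CD14 read 10.46, 10.01 and 10.03 in control and 10.21, 10.39 and 10.47 in DFX tumors. Control replicate 1 lay among the DFX tumors, while control replicates 2 and 3 were the lowest of the 6. The difference was 0.19 (SE 0.16, adjusted p = 0.753), a fold of 1.14 with an interval of 0.869 to 1.501. Its range over the 6 tumors, 0.46, was near the median of all genes.

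The ITAM adaptors were both well above background in every tumor. TYROBP read 7.75, 7.45 and 7.82 in control and 7.84, 8.39 and 7.51 in DFX tumors. DFX replicate 2 was the highest tumor and control replicate 2 the lowest, with DFX replicate 3 next to it. The difference was 0.24 (SE 0.24, adjusted p = 0.7998), and it was 0.0026 without DFX replicate 2 and 0.44 without DFX replicate 3. FCER1G probe 1, at chr1:161188875-161188934 on the plus strand, read 9.09, 9.29 and 9.36 in control and 9.66, 9.57 and 8.96 in DFX tumors. DFX replicates 1 and 2 were above all controls and DFX replicate 3 was below them. The difference of 0.15 (SE 0.21, adjusted p = 0.861) became 0.012 without DFX replicate 1, 0.061 without DFX replicate 2 and 0.37 without DFX replicate 3, the last with an unadjusted limma p of 0.0423 and an adjusted p of 0.587.

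FCER1G probe 2 was dim. It read 4.19, 3.99 and 3.71 in control and 4.35, 5.002 and 3.18 in DFX tumors, and was well above background in control replicate 1 and DFX replicates 1 and 2. Its difference was 0.21 (SE 0.46, adjusted p = 0.911), and -0.20 without DFX replicate 2. Without DFX replicate 3 it was 0.71, with an unadjusted limma p of 0.0392 and an adjusted p of 0.582.

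By the brightest tested probe of each gene, C1QB had the widest spread and the largest difference between the group means. It read 11.02, 10.68 and 9.31 in control and 9.64, 9.72 and 9.60 in DFX tumors. The 3 DFX tumors were nearly identical, control replicates 1 and 2 were above them, and control replicate 3 was below them. The means were 10.34 ± 0.90 in control and 9.65 ± 0.056 in DFX tumors (SD, n = 3), and the difference was -0.68 (SE 0.43, adjusted p = 0.698), a fold of 0.623 with an interval of 0.298 to 1.30. Its range over the tumors, 1.71, exceeded that of 97.0% of those 17803 genes.

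The C1QB result rested on control replicate 3. Without it the difference was -1.20, with an unadjusted limma p of 0.000446 and an adjusted p of 0.402. Without control replicate 1 it was -0.34, and with array weights, which give each array a weight by its fit to its group, it was -0.91, with an unadjusted limma p of 0.0263 and an adjusted p of 0.331. Control replicate 3 also had the lowest mean deviation of the 6 tumors over 7 of the 11 leukocyte and myeloid lists described further on, namely pan-leukocyte (-0.14), macrophage and monocyte (-0.20), ITAM and Fc receptor signaling (-0.13), complement (-0.42), CSF1 axis (-0.17), lysosome (-0.16) and mast cell (-0.59). Single genes carried most of the lysosome and mast cell values. The brightest tested PSAP probe read 7.49 in control replicate 3 and 10.81 in control replicate 1. The other tested PSAP probe read 7.64 and 7.32. LAMP1, CTSB and GRN were also lowest in control replicate 3, by less, but the other lysosome genes were not. KIT read 5.47 there and 7.96 to 8.66 in the other tumors. CPA3 was also lowest there, but HDC and CMA1 were not. Control replicate 3 was not the lowest over the T and NK cell (-0.11), neutrophil (-0.36) and B cell (0.12) lists. Over the list of CD14 and Toll-like receptor sensing it was the highest tumor (0.071). Over the 7 tested members it was at -0.015, above control replicate 1 (-0.026). Among 4 lists of other cell types control replicate 3 was the lowest for the tumor epithelium (-0.25), while over the endothelium list it was the highest tumor (0.31). The part of that tumor's composition in the C1QB value was not tested.

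C1QA, which lies beside C1QB on chromosome 1, was dim. It read 3.33, 4.50 and 4.28 in control and 4.28, 3.87 and 4.01 in DFX tumors, and was well above background in control replicates 2 and 3 only. The difference was 0.02 (SE 0.32, adjusted p = 0.991) and no fold can be given. C1QC, the gene of the remaining C1q chain, which was named after its values were seen, was well above background in control replicate 2 alone (4.84) and read 2.11 to 2.35 in the other 5 tumors. The 3 chains of C1q therefore had a measured level in all 6 tumors for C1QB only.

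**Figure D3:**
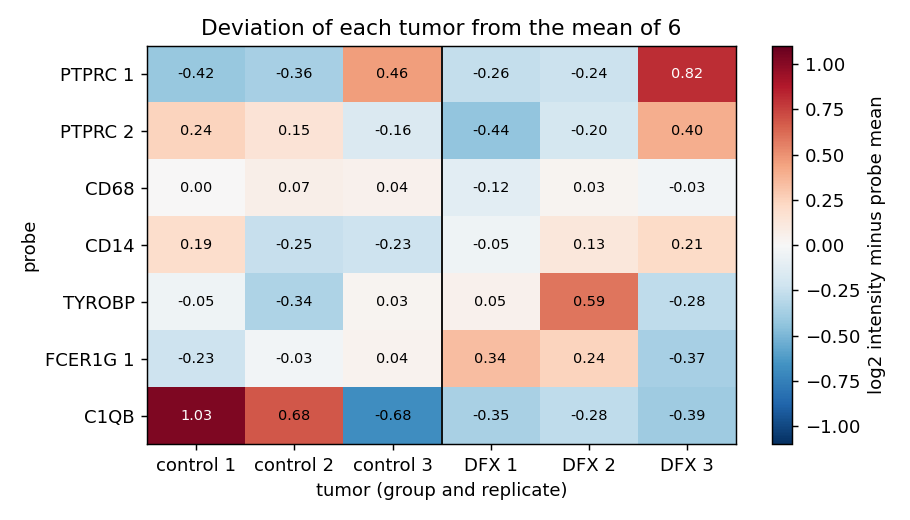
Deviation of each tumor (columns) from the mean of the 6 tumors in log2 intensity (color and printed value) for the 7 probes that cleared background on each array (lines). C1QB runs from 1.03 in control replicate 1 to -0.68 in control replicate 3, PTPRC probe 1 reaches 0.82 in DFX replicate 3, and CD68 stays within -0.12 and 0.07.

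Across the 6 tumors the genes were also set against each other. The mean deviation of the 6 genes that cleared background on each array was 0.09, -0.04 and -0.06 in control replicates 1 to 3 and -0.07, 0.08 and -0.0069 in DFX replicates 1 to 3. Among the 15 pairs of these genes, the highest Pearson r over the 6 tumors was that of the adaptors TYROBP and FCER1G, 0.64 (exact permutation p = 0.163, Spearman rho 0.77 with exact permutation p = 0.103, r = 0.83 without the 2 tumors farthest from the median of TYROBP). The lowest was that of PTPRC, by its probe 1, and C1QB, -0.66 (exact permutation p = 0.0875, rho -0.89 with exact permutation p = 0.0333, r = -0.99 without the 2 farthest tumors by PTPRC). PTPRC probe 2 did not enter these pairs. In control replicates 1 and 2, the highest in C1QB, probe 1 deviated by -0.42 and -0.36 but probe 2 by 0.24 and 0.15. In DFX replicate 3 both probes lay above their means (0.82 and 0.40). The exact permutation p-values for rho were not adjusted. After Benjamini-Hochberg adjustment over the 15 pairs all exact permutation p-values for r were 0.942 or higher.

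Of 17793 other genes detected in this way, those most like the mean profile over the 6 tumors were XLOC_l2_008689 (r = 0.976), ZACN, a zinc-gated ion channel (r = 0.974), and a transcript named only by its Ensembl identifier (r = 0.973), and 55 genes (0.309%) had an r of 0.9 or more. For single genes the likeness, looked up after the values were seen, was highest to C12orf53 (r = 0.995) and TUBB2A, a beta-tubulin (r = 0.988), for C1QB, to the histone genes, near-identical copies of which can share signal, HIST1H2AI (r = 0.999) and HIST1H4A (r = 0.988), with CLPS between them (r = 0.992), for FCER1G, and to XLOC_012692 (r = 0.997) and then SPRR2E (r = 0.986), a gene of the epithelial cell envelope, for CD14. These are descriptions over 6 tumors.

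The wider set of leukocyte and myeloid genes was described through 11 lists with 149 genes, of which 146 had a probe. Of these, 76 (52.1%) had a probe that cleared background on each of the 6 arrays and 43 (29.5%) on none, shares close to the 51.7% and 34.1% of all gene names. Of 100 tested genes, 4 were higher and 6 lower in DFX tumors at an unadjusted limma p under 0.05, 10% together. Of all genes 3.68% were higher and 4.29% lower by this rule, 7.98% together. The 100 genes had a median difference of 0.04, and none passed after adjustment.

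Lists named for a leukocyte type were measured in part. In the pan-leukocyte list 10 of 19 genes were well above background on all arrays, and CD53, ITGAL, CD48, LCP2 and DOCK2 were so on none. In the macrophage and monocyte list this was 9 of 25, with MRC1, SIGLEC1, CX3CR1, CCR2, MPEG1 and TREM2 among the 11 genes at background on every array. In the T and NK cell list it was 5 of 17, in the B cell list 2 of 8, in the neutrophil list 3 of 9 and in the mast cell list 2 of 6. The complement list, with 14 of 15, the lysosome list, with 10 of 10, and the list of CD14 and Toll-like receptor sensing, with 9 of 11, hold genes that epithelial cells also express.

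**Figure D4:**
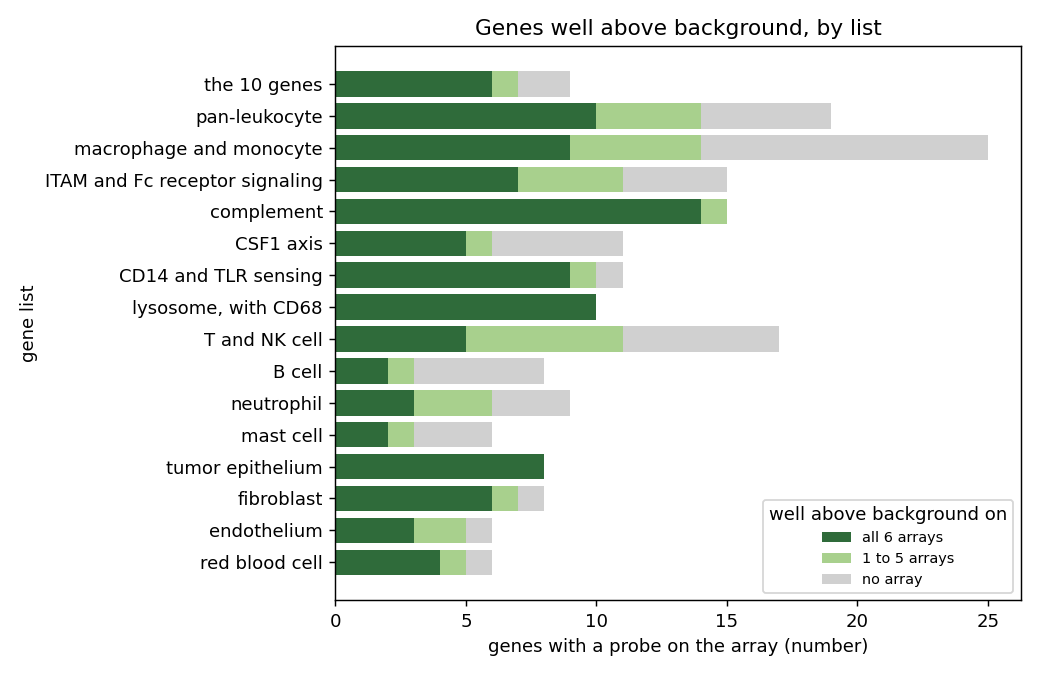
Number of genes with a probe (horizontal axis) in each list (vertical axis), split by whether a probe was well above background on all 6 arrays, on 1 to 5 arrays or on none. The macrophage and monocyte list has the most genes on no array, 11 of 25, and the complement, lysosome and tumor epithelium lists have none.

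In the pan-leukocyte list 0 of 13 tested genes were higher and 1 lower. The lower one was WAS, the actin regulator of blood cells, which read 5.72, 5.46 and 6.44 in control and 5.11, 4.57 and 4.51 in DFX tumors, a difference of -1.15 (SE 0.30, adjusted p = 0.514). WAS was well above background on 3 control and 2 DFX arrays, and its difference was -0.41 from the raw mean signal, without background subtraction. In the macrophage and monocyte list 1 of 14 was lower, CYBB, the catalytic chain of the phagocyte NADPH oxidase, and in the list of the CSF1 axis 1 of 7, CSF2RB, the shared chain of the receptors for GM-CSF, interleukin 3 and interleukin 5. Among the 12 tested genes of ITAM and Fc receptor signaling, the kinase BTK was lower. CYBB, BTK and CSF2RB were well above background on no DFX array and on 1, 2 and 1 control arrays. No fold is given for these 3 genes, most values of which lay at background.

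PLCG2, a phospholipase downstream of ITAM receptors, was the gene of the signaling list that was higher. It read 8.49, 8.49 and 8.62 in control and 8.76, 8.81 and 8.90 in DFX tumors, a difference of 0.29 (SE 0.10, adjusted p = 0.570). In the complement list 3 of 14 tested genes were higher and none lower by their brightest probe. They were C3, the central component (0.97, SE 0.38, adjusted p = 0.584), CFD, factor D of the alternative pathway (0.54, SE 0.20, adjusted p = 0.580), and C1S, a protease of the C1 complex (0.44, SE 0.13, adjusted p = 0.525). C3 missed the unadjusted threshold under 11 and CFD under 8 of the 21 alternatives, and C1S turned to -0.18 when the mean of all its tested probes was used. C3 read 8.24, 9.74 and 8.63 in control and 9.74, 10.02 and 9.78 in DFX tumors, so that control replicate 2 reached the DFX range. The median of the complement list was 0.054. With any probe allowed 4 genes of the list were called. A dimmer probe of SERPING1 was lower in DFX tumors, with an unadjusted limma p of 0.00514 and an adjusted p of 0.514. That probe was well above background on 3 control and 0 DFX arrays, and no fold is given.

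In the lysosome list LAMP2, a membrane protein of the same compartment as CD68, was lower, with 12.60, 12.46 and 12.46 in control and 12.13, 12.15 and 12.37 in DFX tumors (-0.29, SE 0.12, adjusted p = 0.591). LAMP2 was the only one of 10 tested. Its other tested probes, well above background on all 6 arrays, gave -0.17 and -0.10 and were not called. LAMP2 missed the unadjusted threshold under 8 of the 21 alternatives. Of the 9 tested genes of T and NK cells CD8A, a T cell co-receptor chain, was lower (-0.31, SE 0.11, adjusted p = 0.562), with 6.48, 6.28 and 6.32 in control and 6.11, 5.98 and 6.05 in DFX tumors. None of 9 tested genes of CD14 and Toll-like receptor sensing, 3 of B cells, 5 of neutrophils or 4 of mast cells differed at an unadjusted limma p under 0.05. The neutrophil list had a mean deviation of 1.43 in control replicate 1 and -1.05 in control replicate 2. In DFX tumors it ranged only from -0.09 to 0.12. Of that list S100A8, S100A9 and LCN2 alone were well above background on all 6 arrays, while MPO, CEACAM8 and CAMP were so on none. S100A8 read 14.37 in control replicate 1 and 9.44 in control replicate 2. Whether mouse leukocytes or human tumor cells gave these signals was not tested.

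Genes of other cell types were counted in the same way, and none of the 4 lists had a gene that passed after adjustment. In the tumor epithelium list all 8 genes were well above background on all arrays, and 3 were higher in DFX tumors, namely KRT8 (0.48, SE 0.16, adjusted p = 0.553), EPCAM (0.43, SE 0.11, adjusted p = 0.514) and KRT18 (0.27, SE 0.10, adjusted p = 0.575), with a median of 0.23. The other tested probes of KRT8, well above background on all 6 arrays, gave 0.24 and -0.12. With the slide column as a block 0 of the 8 genes were called. In the fibroblast list DCN (-1.30, SE 0.32) and PDGFRA (-1.12, SE 0.30) were lower and LUM (0.87, SE 0.34) was higher, and in the endothelium list PECAM1 was higher (1.27, SE 0.19) and ENG, well above background on 1 of the 3 DFX arrays, was lower (-1.09, SE 0.29), with adjusted p-values of 0.504 to 0.584 for these 5 genes. KRT8, KRT18 and LUM missed the unadjusted threshold under 7, 9 and 9 of the 21 alternatives. In the red blood cell list HBA2, an alpha-globin whose probe can share signal with the near-identical HBA1, was lower, with 12.44, 12.67 and 12.27 in control and 10.47, 10.53 and 10.59 in DFX tumors, a difference of -1.93 (SE 0.13, adjusted p = 0.0928). Summed over each list, the mean deviation of the red blood cell list was 0.13 to 0.57 in control and -0.40 to -0.22 in DFX tumors, while that of the 10 myeloid and leukocyte genes, over their 7 tested members, was -0.03 to 0.03 in control and -0.02 to 0.04 in DFX tumors. The part of blood content and tumor cell share in the values of the myeloid genes was not tested.

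**Figure D5:**
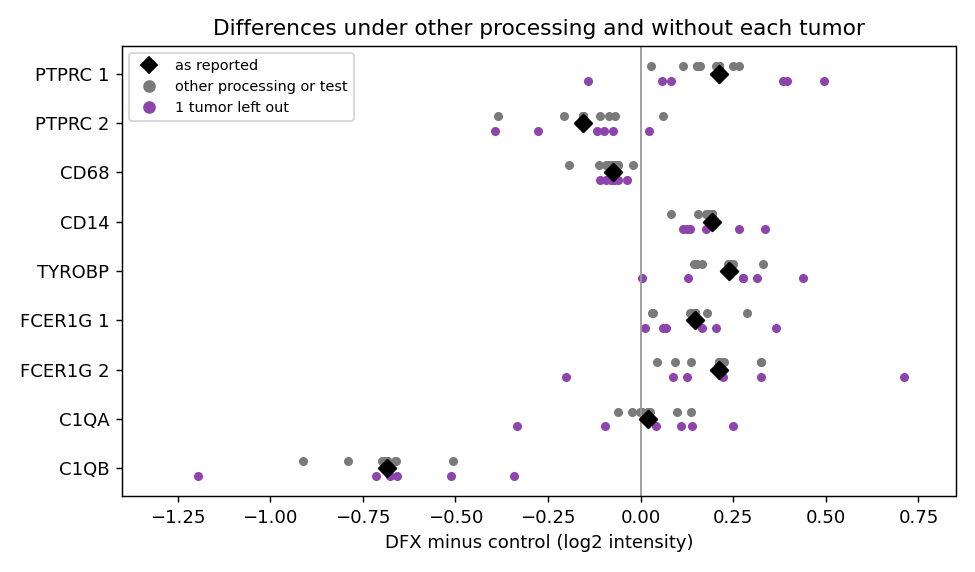
DFX minus control difference in log2 intensity (horizontal axis) of the 9 tested probes (vertical axis) as reported (diamonds), under other processing or tests (grey) and with 1 tumor left out (purple). CD68, CD14, TYROBP, FCER1G probe 1 and C1QB stay on 1 side of 0, whereas both PTPRC probes, FCER1G probe 2 and C1QA cross it.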

How the data were processed

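For each array the authors deposited the output of the scanner software (Agilent Feature Extraction, version 10.7.1.1 per the file headers and 9.5.1.1 per the labels), with intensities on a linear scale, a background p-value per spot and flags for outliers and for signal well above background. A second deposited table holds the authors' normalized intensities and served as an alternative. Here the background-subtracted intensity was log2-transformed and quantile-normalized over 58717 non-control spots, 1398 values flagged as outliers were left out, and spots were averaged per probe. Probes whose deposited background p-value was under 0.05 on all 6 arrays were tested (31807 of 50599). A probe counted as well above background when most of its spots did. No array was left out, and the number of arrays limits the precision. For CSF1R 1 outlier spot was dropped on the array of control replicate 2 and 1 on that of DFX replicate 1.

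DFX and control were compared two-sided in limma (version 3.58.1, R version 4.3.3; lmFit, then eBayes with 2.04 prior degrees of freedom), and p-values were adjusted by Benjamini-Hochberg over the tested probes. The procedure was tested on simulated data. A gene stands by its brightest tested probe. Since neither the labels nor the paper name the mouse of each tumor, p-values measure only the spread between these tumors. Apart from the 10 genes, a list gene was named with its difference when its unadjusted p was under 0.05, at most 5 per list and direction, and the 3 genes most like the mean profile were named. The 10 genes and the lists were chosen with earlier results of these data known. Alternatives covered scaling, background correction, the signal column, the authors' values, the detection threshold, outlier spots, the test, array weights, blocks, the mean over probes and leaving out each tumor. Gene names are those of the array design. Probe sequences were read from the scanner files, and that of the C1QA probe is not reported here.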

Additional observations from a re-analysis of the deposited data

How the results depend on the processing

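No gene among the 10 passed at an adjusted p under 0.05 with any of 21 alternatives. At an unadjusted p the count of 0 genes, by the brightest or by any probe, became 1 with array weights (C1QB), and leaving out 1 tumor gave 0 to 1: C1QB without control replicate 3 and FCER1G without DFX replicate 3. Over all tested probes the Kruskal-Wallis H test called 4927, the same number as had no overlap between the groups. By limma the 2675 calls became 4213 with array weights and 1418 with the slide column as a block. With 1 tumor left out they were 1889 to 2717. Calls lower in DFX made up 58.8%, against 42.6% with the 75th percentile as the scale and 71.8% with the median, which moved the median over all probes to -0.10. It also moved the mean difference of the 6 genes that cleared background on each array from 0.0051 to -0.094. Leaving out 1 tumor gave -0.03 to 0.05 for that mean.

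Leaving out 1 tumor gave -0.14 to 0.50 for PTPRC probe 1, -0.39 to 0.022 for PTPRC probe 2, -0.20 to 0.71 for FCER1G probe 2 and -0.33 to 0.25 for C1QA. Signs turned as follows, and the cause was not tested. PTPRC probe 1 gave -0.14 without DFX replicate 3, and probe 2 gave 0.060 with the slide column as a block and 0.022 without DFX replicate 1. FCER1G probe 2 gave -0.20 without DFX replicate 2. C1QA gave -0.0012 after median scaling, -0.061 after normexp correction, -0.023 from the raw mean signal, -0.33 without control replicate 1 and -0.10 without DFX replicate 1. C1S gave -0.18 from the mean of its probes. CD68 (-0.19 to -0.02), CD14 (0.08 to 0.34), TYROBP (0.0026 to 0.44), FCER1G probe 1 (0.01 to 0.37) and C1QB (-1.20 to -0.34) kept their sign. Of the 10 list genes called at an unadjusted p, WAS kept the call under all its alternatives and the other 9 lost it under 3 to 11 of theirs. With 1 tumor left out C3 gave 0.66 to 1.41 and CFD 0.38 to 0.74. The replicate numbers of the titles did not pair the tumors: deviations of same-numbered tumors correlated at 0.03, 0.03 and 0.02, and with a replicate block 2419 probes passed and 0 of the 10 genes. Signal over background limits C1QA, FCER1G probe 2, CD163, CSF1R and PTPRC probes 3 to 5, and a mouse transcript that a human probe binds poorly would read as background.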
